A study of Macaca mulatta with 11 samples.

Results

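The matrix metalloproteinases (MMP), the ADAM and ADAMTS proteases and their tissue inhibitors (TIMP) were measured by 88 of the 22215 probe sets on the arrays. Members were taken by symbol: a probe set belonged when the platform annotation gave it a name made of MMP, ADAM or ADAMTS and a number, or one of the 4 TIMP names. They covered 52 of the 11963 genes named by a single symbol, namely 21 MMP genes (32 probe sets), 17 ADAM genes (36), 10 ADAMTS genes (12) and 4 TIMP genes (7). The remaining probe set carried several symbols, and it is counted here but not named.

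RNA came from 11 cultures of rhesus monkey bone marrow mesenchymal stem cells, the adherent stromal cells that can form bone, cartilage and fat, with 1 array per culture. At gestation day 120 there were 2 cultures, from newborns 2, from infants 4 (aged 6, 6, 3 and 5 months) and from adults 3 (aged 7, 7 and 8 years). The titles call the newborn arrays fetal, numbers 3 and 4, so the adult and infant groups were set against the 4 arrays titled fetal, and the newborn and gestation day 120 arrays were also compared with each other. No culture was treated, and all were grown in serum-containing medium to passage 2 and collected before confluence. Infant and adult marrow was aspirated, while the marrow of the younger donors was flushed out of long bones, so collection method and age cannot be told apart against the arrays titled fetal. The labels do not say that donors of the same age were different animals, so p-values measure the spread between these cultures.

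MMPs are zinc-dependent enzymes, secreted or held at the cell surface, that between them cut most proteins of the extracellular matrix. ADAMs sit in the membrane and release the outer parts of other surface proteins, and ADAMTS enzymes are secreted, cut large proteoglycans and trim procollagens. These enzymes are made as inactive precursors. TIMPs block MMPs by filling the active site, and TIMP3 also blocks several ADAM and ADAMTS enzymes. In marrow stroma these enzymes are known for remodelling the collagen-rich matrix in which bone and blood cells form.

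Values are log2 of the deposited intensity, and a difference of 1 is a doubling. Human probes were used on monkey RNA, so brightness also reflects how well a probe matches, and levels of different genes were not ranked. Levels served only to separate brighter from dimmer probe sets at the median of all probe set means, 7.38. In the brighter 50% lay 42 of the 88 member probe sets (47.7%), among them 16 of 32 for MMP, 17 of 36 for ADAM, 3 of 12 for ADAMTS and 6 of 7 for TIMP. By each gene's brightest probe set, 29 of the 52 genes were in the brighter part: 10 MMP, 12 ADAM, 3 ADAMTS and all 4 TIMP genes. Members varied over the 11 arrays about as much as other probe sets, with a median range of 0.62 against 0.58 for all probe sets.

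**Figure D1:**
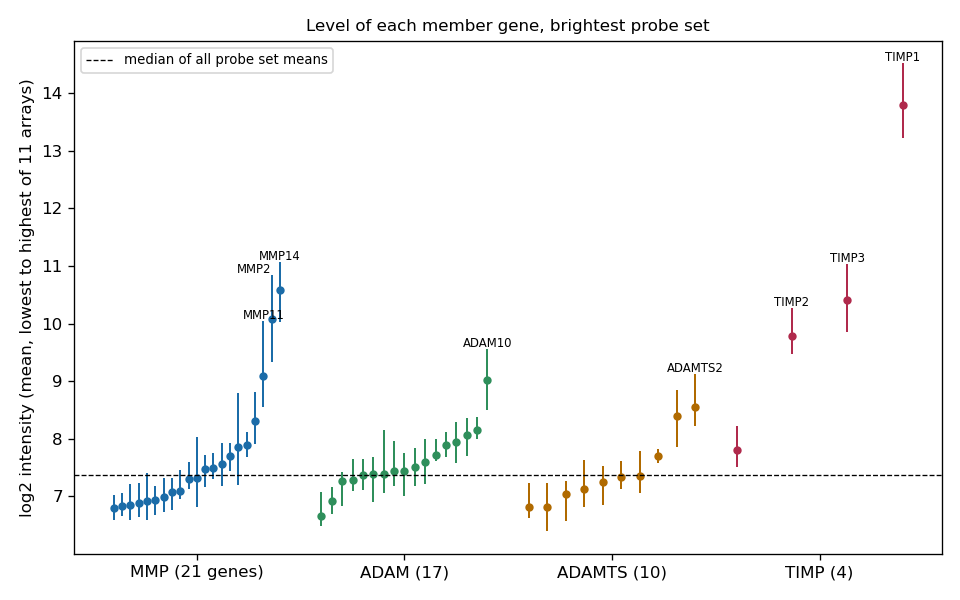
Log2 intensity of the brightest probe set of each of the 52 member genes, by family. Points are means and lines run between the lowest and highest of the 11 arrays; the dashed line is the median of all probe set means (7.38). All 4 TIMP genes lie above the line, against 10 of 21 MMP genes. Heights of different genes are not comparable, since probes differ in brightness.

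The dim MMPs included a group of neighbours. In the RefSeq gene order of the rhesus genome, used here only for names and neighbours, 9 MMP genes follow each other without another protein-coding gene between them, in the order MMP7, MMP20, MMP27, MMP8, MMP10, MMP1, MMP3, MMP12 and MMP13. They include the fibrillar collagenases MMP1, MMP8 and MMP13, the stromelysins MMP3 and MMP10, and MMP20, an enzyme of tooth enamel formation. None of the 9 was in the brighter 50%, their means lay between 6.80 and 7.32, and single values lay between 6.60 and 8.01. A dim value does not show that a gene was silent. The highest value of the run was MMP13 in the first gestation day 120 array (8.01), while the other 10 arrays lay between 6.83 and 7.55.

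In the comparison of adult cultures with those titled fetal, limma, fitted over all probe sets, called 0 of the 88 members at an adjusted p under 0.05, where it called 0.131% of all probe sets (29, with 0.0675% higher and 0.063% lower in adults). At an unadjusted p under 0.05 there were 9 members (10.2%, 7 higher and 2 lower in adults), against 8.96% of all probe sets (4.12% higher and 4.83% lower). Groups did not overlap for 9 members (10.2%, 6 higher and 3 lower), against 8.08% of all (4.41% higher and 3.66% lower). The total shares were close to the background. The median difference was 0.00 over the 88 members and 0.01 over all probe sets, with 44 members higher and 44 lower.

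MMP14, the membrane-type MMP that cleaves collagen at the cell surface and activates the MMP2 precursor, was measured by 4 probe sets, all in the brighter 50%. All 4 were higher in adult than in fetal-titled cultures on average, by 0.41 to 0.56, and none passed the test (adjusted p 0.222 to 0.640). With the replicate number as a block, which the data did not bear out as a pairing of these groups, the brightest and second brightest passed (0.62 and 0.54, adjusted p 0.0239 and 0.0478). In both other MMP14 probe sets adult array 3 (9.19 and 8.20) lay within the fetal-titled values (8.86 to 9.44 and 7.99 to 8.57). In the dimmest of the 4, infant and adult arrays 1 and 2 read 8.76 to 9.19, and all other arrays 7.99 to 8.66. The brightest MMP14 probe set read 10.34 and 10.56 at gestation day 120, 10.04 and 10.70 in newborns, 10.39, 10.44, 10.33 and 10.83 in infants, and 10.997, 11.05 and 10.73 in adults. All 3 adult values were above the 4 fetal-titled ones, the closest pair being adult array 3 and newborn array 4, and 1 infant value lay within the adult range. It averaged 10.93 ± 0.17 in adults and 10.41 ± 0.29 in arrays titled fetal (SD, n = 3 and 4), a difference of 0.51 (SE 0.16, 95% interval 0.17 to 0.86, adjusted p = 0.300).

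The second brightest MMP14 probe set had 9.25 and 9.33 at gestation day 120, 9.28 and 9.51 in newborns, 9.62, 10.09, 9.69 and 10.08 in infants, and 9.83, 9.89 and 9.73 in adults. Both older groups lay wholly above the 4 fetal-titled arrays. Its adult minus fetal-titled difference was 0.47 (SE 0.13, 95% interval 0.20 to 0.75, adjusted p = 0.222). Its infant minus fetal-titled difference was 0.53 (SE 0.12, 95% interval 0.27 to 0.79, adjusted p = 0.376), and both differences share the fetal-titled arrays. For adults minus infants this probe set gave -0.05 (95% interval -0.33 to 0.23), while the brightest gave 0.43 (95% interval 0.08 to 0.77, adjusted p = 0.712), so the probe sets of MMP14 placed the infant cultures differently.

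MMP19, a secreted MMP able to cut basement membrane proteins, had the smallest p of all members in adults against arrays titled fetal. By its brightest probe set it read 7.92 and 8.30 at gestation day 120, 8.06 and 8.00 in newborns, 8.25, 8.52, 8.19 and 8.30 in infants, and 8.66, 8.79 and 8.35 in adults. The adult values were the highest 2 of all arrays plus 1 within the infant range, and all 3 exceeded the fetal-titled ones. The difference was 0.53 (SE 0.13, 95% interval 0.25 to 0.81, 1.45-fold), with an adjusted p of 0.158, and without adult array 3 it was 0.66 with an adjusted p of 0.0394. Without adult array 2 it was 0.44. A second MMP19 probe set, also in the brighter 50%, differed by only 0.06 (adjusted p = 0.952).

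Adult arrays 1 and 2 also had the highest mean of the macrophage and leukocyte marker list. The mean over the 9 measured markers of that list, 5 of them in the brighter 50%, was 7.502 to 7.84 in adults, 7.37 to 7.67 in infants, and 7.45 to 7.67 in arrays titled fetal. Among single markers, FCER1G read 8.85, 9.30 and 8.495 in adults against 7.70 to 8.53 in arrays titled fetal. In infants FCER1G read 8.53 to 8.999, all above adult array 3, and infant arrays 2 and 4 lay above adult array 1. CD14 read 7.64, 7.72 and 7.06 in adults against 7.04 to 7.54 in arrays titled fetal. TYROBP and LYZ, both in the dimmer 50%, were, like CD14, highest in adult arrays 1 and 2 (7.45 and 7.85, 7.07 and 7.12). Of the 9 markers, 6 were higher and 3 lower in adults than in arrays titled fetal on average. CD163 went the other way, with 7.33, 7.34 and 7.48 in adults against 7.53 to 7.80 in arrays titled fetal. PTPRC read 7.60, 7.79 and 7.86 in adults against 7.72 to 7.93. None of the markers passed the test. With adult arrays 1 and 2 both left out, MMP19 differed by 0.28 and MMP14 by 0.32 and 0.39 (brightest and second brightest probe set), with adjusted p of 0.594 to 0.801. That fit has 1 adult array, which is assumed to vary like the other groups. The part of these markers in the MMP14 and MMP19 values was not tested, and in bulk RNA fewer cells of a type and less RNA per cell cannot be told apart.

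**Figure D2:**
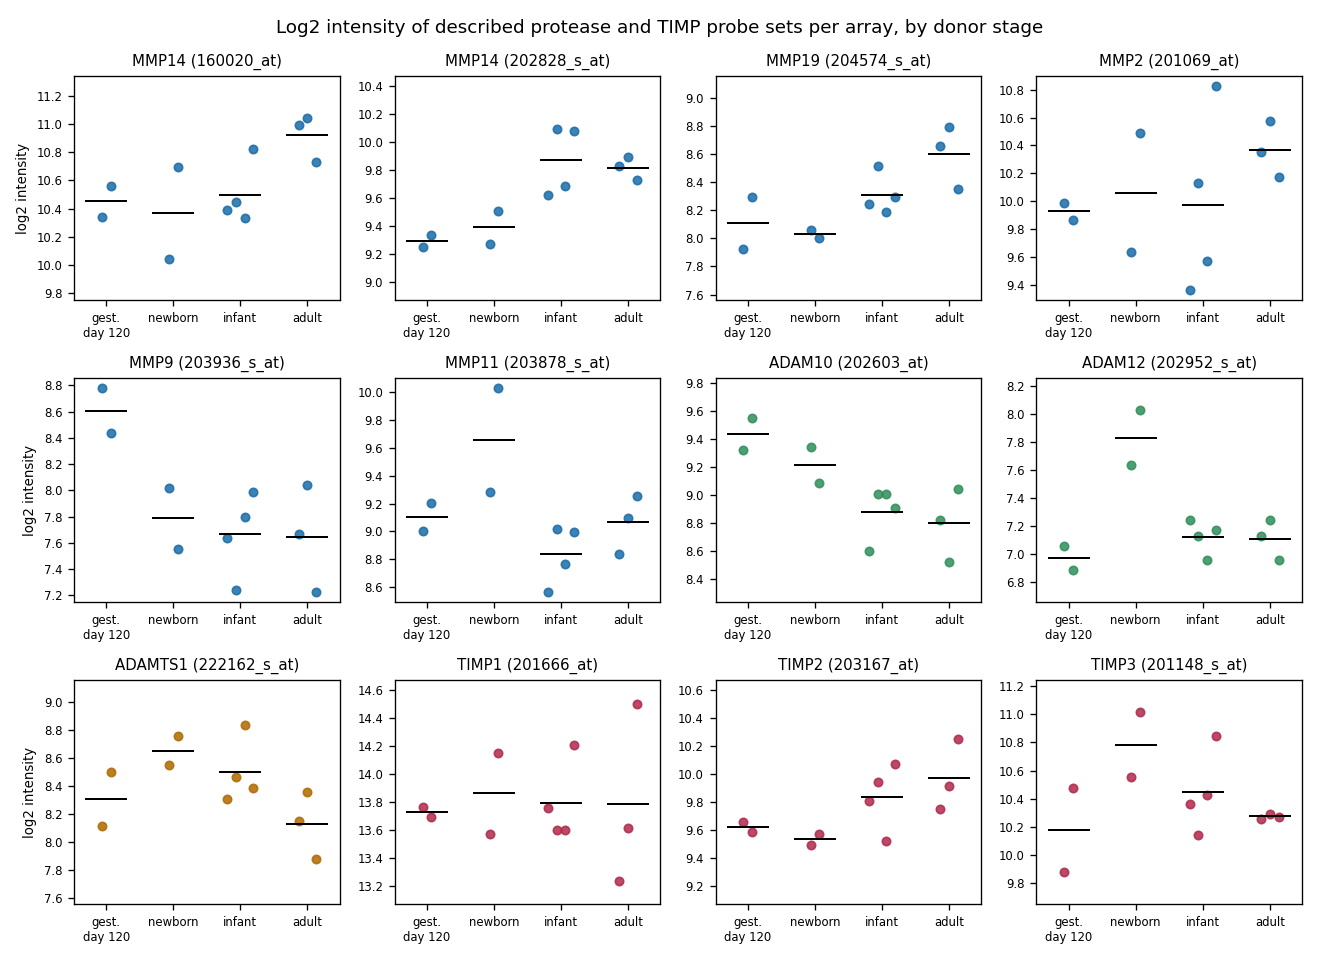
Log2 intensity of 12 described probe sets in each array, by donor stage. Points are arrays (2, 2, 4 and 3 per stage) and bars are stage means. The vertical axes differ in position and, for the probe sets of widest range, also in length. The adult points of the brightest MMP14 probe set, in the first panel, lie between 10.73 and 11.05, above the fetal-titled arrays at 10.04 to 10.70, and MMP9 is highest in the gestation day 120 arrays (8.78 and 8.43).

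The gelatinases MMP2 and MMP9 digest denatured collagen and basement membrane collagen. MMP2, the form that stromal cells make, was in the brighter 50%. It read 9.99 and 9.87 at gestation day 120, 9.64 and 10.49 in newborns, 9.36, 10.13, 9.57 and 10.83 in infants, and 10.35, 10.57 and 10.17 in adults. Infant arrays alone spanned more than the adult and fetal-titled means differed, 10.37 ± 0.20 and 9.99 ± 0.36 (SD, n = 3 and 4), and the difference of 0.37 did not pass (95% interval -0.24 to 0.98, adjusted p = 0.765). Its range over the 11 arrays, 1.47, was among the 3 widest of the members.

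MMP9, the gelatinase best known from neutrophils and osteoclasts, had the widest range of all members, 1.56. It measured 8.78 and 8.43 at gestation day 120, 8.02 and 7.55 in newborns, 7.64, 7.24, 7.80 and 7.99 in infants, and 7.67, 8.04 and 7.22 in adults. The gestation day 120 cultures held the 2 highest values, and the newborn, infant and adult cultures overlapped. For adults minus arrays titled fetal the difference was -0.55 (95% interval -1.11 to 0.01, adjusted p = 0.564). It was -0.34 without adult array 3, -0.36 without gestation day 120 array 1, -0.77 without newborn array 4 and -0.14 against newborns alone. For newborns minus gestation day 120 it was -0.82 (95% interval -1.41 to -0.23, adjusted p = 1, 2 arrays each). Of 8 neutrophil markers measured, 1 was in the brighter 50%, and their mean was 7.04 to 7.29 over all arrays and 7.13 in both gestation day 120 arrays. The macrophage and leukocyte markers were lower in newborns than at gestation day 120 for 7 of 9 (median -0.17, 1 at an unadjusted p under 0.05). CD163 was highest in the gestation day 120 arrays (7.69 and 7.80, against 7.15 to 7.62). FCER1G, CD14, TYROBP and LYZ of the same list were highest in adult array 2 (9.30, 7.72, 7.85 and 7.12), and PTPRC in newborn array 4 (7.93). The list mean was 7.55 and 7.67 in the gestation day 120 arrays, against 7.37 to 7.84 in the others. Of 4 osteoclast markers 1 was in the brighter 50%, with a mean of 7.48 and 7.57 in the gestation day 120 arrays, against 7.49 to 7.76 in the other 9. The part of these markers in the MMP9 values was not tested.

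MMP11, a stromelysin that is activated inside the cell by furin, was measured by 3 probe sets, and all 3 were lower in adults than in arrays titled fetal on average, by between 0.08 and 0.34. For the brightest the difference was -0.32, or -0.10 without newborn array 4, -0.20 without adult array 1 and -0.44 without gestation day 120 array 1. The brightest read 9.01 and 9.21 at gestation day 120, 9.28 and 10.03 in newborns, 8.56, 9.02, 8.77 and 8.995 in infants, and 8.84, 9.10 and 9.26 in adults. Newborn array 4 stood above all others. Infants averaged 8.84 ± 0.21 and arrays titled fetal 9.38 ± 0.45 (SD, n = 4 each), a difference of -0.54 (95% interval -0.95 to -0.14, adjusted p = 0.616). The second brightest probe set had 8.22 and 7.89 at gestation day 120, 8.09 and 8.55 in newborns, 7.78, 7.49, 7.90 and 7.79 in infants, and 7.77, 7.73 and 8.04 in adults, and its infant minus fetal-titled difference was -0.45 (95% interval -0.75 to -0.15, adjusted p = 0.559). In both probe sets infant and fetal-titled values overlapped, by 1 gestation day 120 array each.

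MMP12, the elastase of macrophages, gave the smallest p for adults against infants, but from a dim probe set. It read 6.95 and 6.95 at gestation day 120, 6.88 and 6.95 in newborns, 6.75, 6.87, 6.93 and 6.95 in infants, and 7.19, 7.30 and 7.24 in adults. All 3 adult values exceeded the other 8, and 4 of those 8 arrays held exactly the same value, 6.95. The adult minus infant difference was 0.37 (95% interval 0.17 to 0.56, adjusted p = 0.397) and the adult minus fetal-titled difference 0.31 (95% interval 0.12 to 0.50, adjusted p = 0.259), with the adult arrays shared. All 9 macrophage and leukocyte markers were also higher in adults than in infants on average (median 0.13), and 6 of 9 were higher in adults than in arrays titled fetal (median 0.17). The part of these markers in the MMP12 values was not tested.

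The other MMPs described were dim, and their groups overlapped. The interstitial collagenase MMP1 read 6.67 to 7.05 over all arrays and its adult minus fetal-titled difference was -0.04 (95% interval -0.29 to 0.21). The stromelysin MMP3 read 6.66 to 7.22, with a difference of -0.18 (95% interval -0.42 to 0.06). The MMP3 difference was -0.10 without either gestation day 120 array 1 or adult array 2, and -0.23 without adult array 3. MMP13, the collagenase of cartilage and bone, averaged 7.16 ± 0.36 in adults and 7.43 ± 0.39 in arrays titled fetal (SD, n = 3 and 4), a difference of -0.27 (95% interval -0.71 to 0.17). The MMP13 difference was -0.08 without gestation day 120 array 1, -0.11 without adult array 2 and -0.47 without adult array 3. Among the membrane-anchored MMPs other than MMP14, the brightest probe sets of MMP15, MMP16, MMP17, MMP24 and MMP25 were in the brighter 50%, and none of their 10 probe sets differed by more than 0.23 in size between adults and arrays titled fetal.

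**Figure D3:**
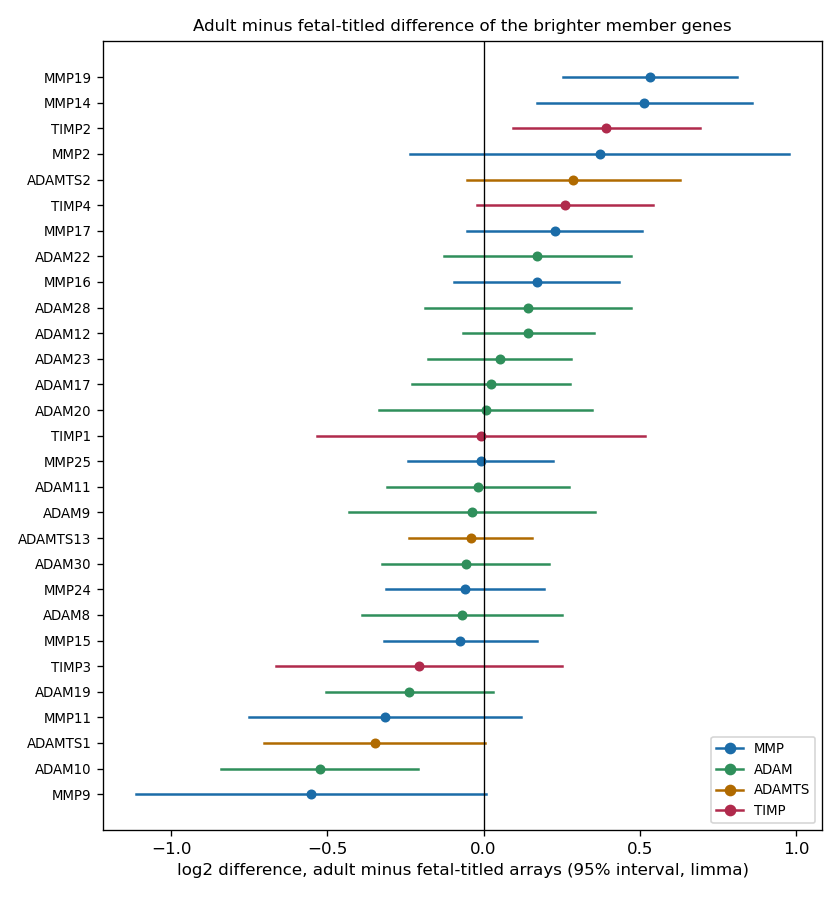
Adult minus fetal-titled difference in log2 intensity for the 29 member genes in the brighter 50%, by brightest probe set and coloured by family. Points are limma estimates and lines their 95% intervals. MMP19 (0.53) is at the top and MMP9 (-0.55) at the bottom; 14 genes lie above 0 and 15 below.

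ADAM10, which releases Notch receptors and many other surface proteins, had the lowest p of the ADAMs. By its brightest probe set it read 9.32 and 9.55 at gestation day 120, 9.34 and 9.08 in newborns, 8.60, 9.01, 9.01 and 8.91 in infants, and 8.82, 8.52 and 9.05 in adults. All 4 fetal-titled arrays were above all infant and adult arrays, with newborn array 4 (9.08) nearest to adult array 3 (9.05). The difference was -0.52 for adults minus arrays titled fetal (95% interval -0.84 to -0.21, adjusted p = 0.242) and -0.44 for infants minus arrays titled fetal (95% interval -0.73 to -0.15, adjusted p = 0.546). The other ADAM10 probe sets, also in the brighter 50%, gave -0.21 and 0.07 for adults and did not repeat this separation. For infants minus arrays titled fetal, 1 of them went the opposite way, by 0.33, and the other was below 0.

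ADAM17, the enzyme that frees tumour necrosis factor from the cell surface, read 7.88 and 7.71 at gestation day 120, 7.75 and 8.09 in newborns, 7.96, 7.74, 7.87 and 8.10 in infants, and 7.87, 7.97 and 7.81 in adults. The stages overlapped throughout. Its adult minus fetal-titled difference was 0.02 (95% interval -0.23 to 0.28), and the other probe sets gave -0.10 and -0.18.

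ADAM12, a metalloprotease that cuts insulin-like growth factor binding proteins, showed the smallest p of all 22215 probe sets for newborns against gestation day 120, through 1 of its 4 probe sets. That probe set, in the dimmer 50%, read 7.63 and 8.03 in newborns and 7.05 and 6.89 at gestation day 120, while infants and adults lay between 6.95 and 7.24. The 2 newborn cultures were thus above the other 9. The difference was 0.86 (95% interval 0.51 to 1.21, 1.82-fold), with an adjusted p of 1 over all probe sets. The brightest ADAM12 probe set held 7.65 and 7.65 in newborns and 7.66 and 7.66 at gestation day 120, a difference of -0.01. With 2 arrays per stage, 28.8% of all probe sets did not overlap between these stages, against 20 of 88 members (22.7%, 10 higher and 10 lower; of all, 13.7% and 15.2%).

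Some other ADAMs were chosen after their values were seen. ADAM19, a sheddase of neuregulins, gave -0.31 for infants minus arrays titled fetal by its brightest probe set (adjusted p = 0.651). ADAM9 and ADAM15 gave -0.04 and 0.06 for adults minus arrays titled fetal. The 6 named ADAMs without a catalytic zinc site, among them the nerve cell adhesion molecules ADAM11, ADAM22 and ADAM23 and the sperm proteins ADAM2 and ADAM18, differed by -0.08 to 0.17 by their brightest probe sets, with adjusted p of at least 0.776. ADAM28 was higher in adults than in arrays titled fetal by all 3 of its probe sets on average, by 0.09 to 0.31, with adjusted p of at least 0.473.

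ADAMTS1, which cuts versican and aggrecan, read 8.12 and 8.50 at gestation day 120, 8.55 and 8.76 in newborns, 8.31, 8.47, 8.84 and 8.39 in infants, and 8.16, 8.36 and 7.88 in adults. Adults held the lowest value and overlapped both younger groups. The difference was -0.35 against arrays titled fetal (95% interval -0.70 to 0.01, adjusted p = 0.565) and -0.37 against infants (95% interval -0.72 to -0.01, adjusted p = 0.779). Against arrays titled fetal it was -0.22 without adult array 3 and -0.47 without gestation day 120 array 1. Its neighbour in the genome, the aggrecan-cutting ADAMTS5, was dim and measured 6.83 and 6.99 at gestation day 120, 7.09 and 6.97 in newborns, 7.62, 7.12, 7.31 and 7.08 in infants, and 7.34, 7.09 and 7.02 in adults. ADAMTS5 differed by 0.18 in adults minus arrays titled fetal (95% interval -0.11 to 0.47), by 0.09 without adult array 1 and by 0.25 without adult array 3.

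ADAMTS2, the enzyme that removes the amino-terminal propeptide of fibrillar procollagens, read 8.46 and 8.46 at gestation day 120, 8.39 and 8.24 in newborns, 9.10, 8.46, 8.41 and 8.44 in infants, and 8.83, 8.46 and 8.74 in adults. Infant array 1 was the highest, and the groups met at 8.46. The adult minus fetal-titled difference was 0.29 (95% interval -0.05 to 0.63, adjusted p = 0.644). ADAMTS12, which can cut cartilage oligomeric matrix protein, was just below the median of brightness and averaged 7.53 ± 0.26 in adults and 7.24 ± 0.11 in infants (SD, n = 3 and 4). Its difference of 0.29 (95% interval 0.03 to 0.56) had an adjusted p of 0.767, and it was 0.18 without adult array 1 and 0.44 without adult array 2. Adult array 2 (7.24) lay within the infant values of 7.08 to 7.29.

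**Figure D4:**
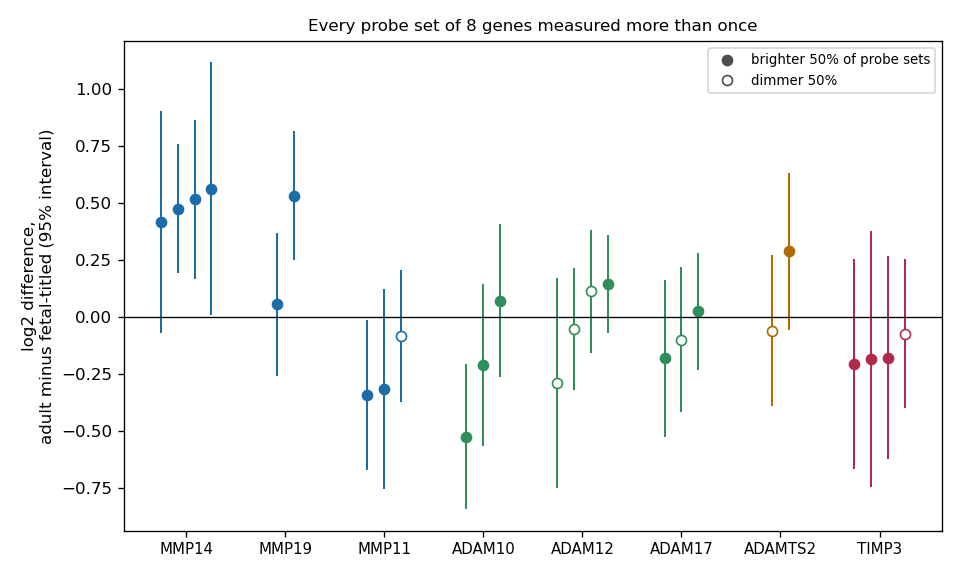
Adult minus fetal-titled log2 difference with its 95% interval for every probe set of 8 genes measured more than once. Filled points are in the brighter 50% and open points in the dimmer 50%. The 4 MMP14 probe sets lie between 0.41 and 0.56, while those of ADAM10 lie between -0.52 and 0.07 and those of MMP19 at 0.06 and 0.53.

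Agreement between probe sets of a gene was limited. Of the 19 genes with more than 1 probe set, 10 had the same sign in all of them for adults minus arrays titled fetal, 9 for adults minus infants, 7 for infants minus arrays titled fetal and 9 for newborns minus gestation day 120. Of the genes drawn by probe set, MMP14, MMP19, MMP11 and TIMP3 had 1 sign in every probe set for adults minus arrays titled fetal, and ADAM10, ADAM12, ADAM17 and ADAMTS2 had both signs.

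TIMP1, an inhibitor of most MMPs and an X-linked gene, was bright in every array. It read 13.76 and 13.69 at gestation day 120, 13.57 and 14.15 in newborns, 13.76, 13.60, 13.60 and 14.21 in infants, and 13.24, 13.62 and 14.50 in adults. Adults held both the lowest and the highest value, and their SD (0.65) was above those of infants (0.29) and arrays titled fetal (0.25). Means were 13.78 in adults, 13.79 in infants and 13.79 in arrays titled fetal, and the adult minus fetal-titled difference was -0.01 (95% interval -0.53 to 0.52, adjusted p = 0.997). Without adult array 3 the difference was -0.37, and with that array as the only adult 0.71 (adjusted p 0.478 and 0.332).

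Adult array 3, the highest for TIMP1, also stood apart in sex-linked RNA. It had 11.2 for XIST, the RNA of the inactive X, where the other 10 arrays had 7.27 to 8.399, and 7.81 for the Y-linked RPS4Y1, where the others had 11.3 to 12.2. The part of this in the TIMP1 value was not tested.

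TIMP2, which besides inhibiting MMPs forms the complex through which MMP14 activates the MMP2 precursor, had 9.66 and 9.59 at gestation day 120, 9.49 and 9.57 in newborns, 9.81, 9.95, 9.52 and 10.07 in infants, and 9.75, 9.91 and 10.25 in adults. All adult values were above the fetal-titled ones, the nearest by 0.09, and infants overlapped both. TIMP2 averaged 9.97 ± 0.25 in adults and 9.58 ± 0.07 in arrays titled fetal (SD, n = 3 and 4), a difference of 0.39 (95% interval 0.09 to 0.69, adjusted p = 0.386). It was 0.25 without adult array 3 and 0.50 without adult array 1. The adult minus fetal-titled differences of the 3 genes of that complex were thus 0.39 for TIMP2, 0.51 for MMP14 (brightest probe set) and 0.37 for MMP2, and none passed the test.

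TIMP3, a matrix-bound inhibitor that also blocks ADAM17 and aggrecan-cutting ADAMTS enzymes, was measured by 4 probe sets. The brightest read 9.87 and 10.47 at gestation day 120, 10.55 and 11.02 in newborns, 10.36, 10.14, 10.42 and 10.85 in infants, and 10.26, 10.29 and 10.27 in adults. The adult values lay within 0.03 of each other and inside the spread of both other groups. For adults minus arrays titled fetal the 4 probe sets gave -0.07 to -0.21, the brightest -0.03 without newborn array 4 and -0.41 without gestation day 120 array 1, and for adults minus infants -0.17 to -0.55, all below 0 and none passing. Against infants the dimmest of the 4 separated the groups, with 7.07, 7.34 and 7.11 in adults and 7.81, 7.37, 7.68 and 7.39 in infants, a difference of -0.38 (95% interval -0.71 to -0.06, adjusted p = 0.741).

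In newborns both values of the brightest TIMP3 probe set were above those at gestation day 120, with a difference of 0.61 (95% interval 0.10 to 1.12, adjusted p = 1). TIMP4, an inhibitor known from heart and fat, read 7.92 and 7.53 at gestation day 120, 7.54 and 7.72 in newborns, 7.77, 7.71, 7.96 and 7.87 in infants, and 8.21, 7.84 and 7.77 in adults. Its groups overlapped, and its adult minus fetal-titled difference was 0.26 (95% interval -0.02 to 0.54, adjusted p = 0.601). The TIMP4 difference was 0.13 without adult array 1 and 0.34 without adult array 3. TIMP1 and TIMP3 lie within the synapsin genes SYN1 and SYN3 and TIMP4 lies next to SYN2 in the RefSeq gene order.

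Proteases and inhibitors were compared as the mean deviation of each array from the 11-array mean, over the brightest probe set of each of 48 protease genes and 4 TIMP genes. Proteases averaged 0.02 ± 0.03 in adults, -0.03 ± 0.05 in infants and 0.01 ± 0.05 in arrays titled fetal (SD, n = 3, 4 and 4). TIMPs averaged 0.05 ± 0.18 in adults, 0.03 ± 0.18 in infants and -0.06 ± 0.16 in arrays titled fetal. The group means of both sets lay within the spread between arrays. Proteases minus TIMPs came to 0.18 and 0.12 at gestation day 120, 0.12 and -0.10 in newborns, -0.07, 0.05, 0.06 and -0.26 in infants, and 0.13, 0.02 and -0.23 in adults. The 3 lowest arrays were infant 4, adult 3 and newborn 4, where the TIMPs deviated by 0.30, 0.25 and 0.17, and they held the 3 highest TIMP1 values. The same 3 arrays had the 3 highest means over 8 chondrocyte markers, 8.34 in infant 4, 8.80 in adult 3 and 8.50 in newborn 4, against 7.88 to 8.27 in the other 8 arrays. The part of these markers in the TIMP values was not tested.

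**Figure D5:**
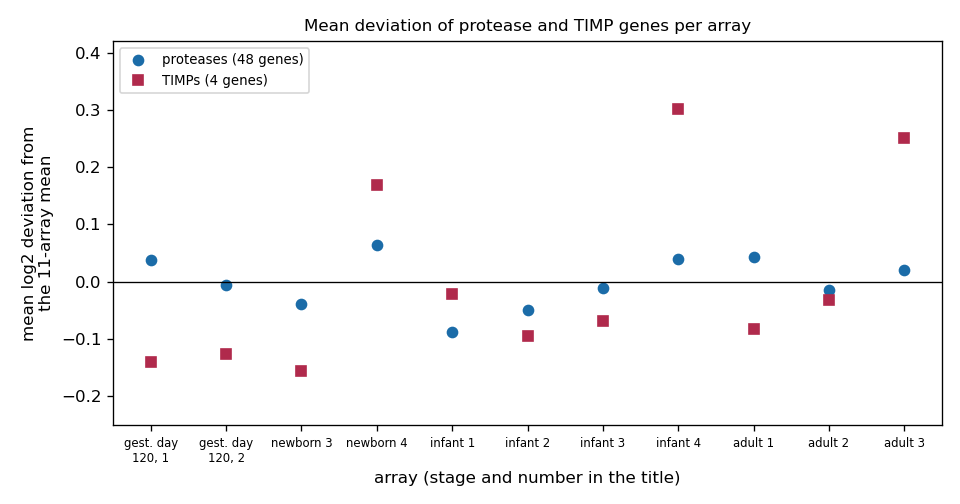
Mean log2 deviation from the 11-array mean, per array, for 48 protease genes (circles) and 4 TIMP genes (squares), by stage and title number. Proteases lie between -0.09 and 0.06, and TIMPs reach 0.30 in infant array 4, 0.25 in adult array 3 and 0.17 in newborn array 4. The spreads are not comparable, since a mean over 48 genes varies less than a mean over 4.

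Newborn array 4 was the highest of the 4 fetal-titled arrays for 15 of the 29 brighter member genes (51.7%), including TIMP1 and TIMP3, against 27.4% of 7187 genes in the brighter 50%. Newborn array 3 was the highest for 0 of the 29, against 20.4% of those genes. The 2 newborn cultures sat at opposite ends of the fetal-titled arrays for MMP2 (10.49 in array 4 and 9.64 in array 3), for the brightest MMP14 probe set and for TIMP1. The members share these arrays, so this describes the cultures and was not tested.

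Adults and infants were also compared over all members. Limma called 0 of 88 members and 0.018% of all probe sets (4, with 0.0135% higher and 0.0045% lower in adults). At an unadjusted p under 0.05 there were 8 members (9.09%, 6 higher and 2 lower in adults), against 6.19% of all (3.79% higher and 2.39% lower). Groups did not overlap for 4 members (4.55%, 2 higher and 2 lower), against 4.98% of all (3.18% higher and 1.8% lower). Same-numbered arrays of these groups deviated together (correlations 0.131 to 0.204), although adult arrays 1 and 3 correlated better with infant arrays 2 and 4 (0.258 and 0.299). With the replicate number as a block 0 members and 9 probe sets in all were called. The median difference was 0.01 over members and 0.01 over all probe sets.

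For infants against arrays titled fetal, limma called 0 of 88 members and 0% of all probe sets (0). At an unadjusted p under 0.05 there were 9 members (10.2%, 4 higher and 5 lower in infants), against 6.87% of all (2.33% higher and 4.55% lower). Groups did not overlap for 3 members (3.41%), namely MMP14, ADAM10 and ADAMTS8, against 3.34% of all (1.21% higher and 2.13% lower). For newborns against gestation day 120, limma called 0 of 88 members and 0% of all probe sets (0), with 4 members (4.55%, 3 higher and 1 lower in newborns) at an unadjusted p under 0.05, against 1.81% of all (0.846% higher and 0.963% lower). The F test over the 4 stages called 0 of 88 members and 0.027% of all probe sets (6), with 10 members (11.4%) and 5.53% of all at an unadjusted p under 0.05, and its lowest adjusted p among members was 0.235, for the dim ADAM12 probe set.

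Genes that work with the family were taken from 9 lists covering the plasminogen system, other inhibitors, convertases, other matrix proteases, cathepsins, ADAMTS-like proteins, receptors and partners, and substrates. Of their 78 genes 71 were measured and 54 were in the brighter 50%. Limma called 0 of the 71 for adults minus arrays titled fetal, and 14 (19.7%, 8 higher and 6 lower) had an unadjusted p under 0.05, against 9.92% of 11963 genes. The lists hold a larger part of bright genes than the arrays do, where 7187 of 11963 genes were in the brighter 50%. Among all probe sets in the brighter 50% the share at an unadjusted p under 0.05 was 12.9%. The median difference was 0.00 in the lists and 0.00 over all genes.

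The procollagen C-proteinase BMP1 differed by 0.35 and its enhancer PCOLCE by -0.68 in adults minus arrays titled fetal (adjusted p 0.386 and 0.259). BMP1 was higher in all 3 adult arrays (9.18 to 9.58) than in the fetal-titled ones (8.97 to 9.17), and PCOLCE was lower in all 3 (10.04 to 10.67, against 10.82 to 11.38). The lysosomal proteases CTSH and CTSL gave 0.40 and -0.77 (adjusted p 0.259 and 0.349). Decorin (DCN), a collagen-binding proteoglycan, gave 0.94 (adjusted p = 0.274), and the serine protease inhibitor TFPI2 gave -0.77 (adjusted p = 0.551). Aggrecan (ACAN), the substrate of ADAMTS1 and ADAMTS5, read 8.96, 8.52 and 12.5 in adults and 9.88 to 12.6 in arrays titled fetal. Adult array 3 lay within the fetal-titled values, and the other adult arrays lay below all of them. The difference of -1.10 did not pass (adjusted p = 0.732).

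Of 11 measured stromal markers, which check the label of the cultures, 9 were in the brighter 50%, among them the endoglin gene ENG, CD44 and PDGFRB. So were 6 of 8 chondrocyte markers, 5 of 8 B and plasma cell markers, 5 of 9 macrophage and leukocyte markers and 7187 of all 11963 genes, so brightness alone does not set the cell type. None of the 59 measured genes of the 8 marker lists was called for adults minus arrays titled fetal (7 at an unadjusted p under 0.05, 11.9% against 9.92% of all genes). Array medians lay between 164.9 and 169.6 on the intensity scale, and arrays correlated at 0.928 to 0.983 over probe sets. The first principal component held 23.1% of the variance. Infant and adult arrays 1 and 2 lay between 16.1 and 20.5 on it, and the other 7 arrays between -19.5 and -6.7. This division splits the infants and the adults, but all fetal-titled arrays lay on the lower side. It therefore cannot be fully told apart from age in comparisons with the fetal-titled arrays. Adult arrays 1 and 2 also held the highest values of the brightest MMP14 and MMP19 probe sets. The part of this division in those values was not tested. In 52 of the 88 members (59.1%) some arrays held exactly the same value, as in 58.5% of all probe sets.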

How the data were processed

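RNA of 11 cultures was labelled with biotin and hybridised to Affymetrix arrays, 1 per culture. The deposited values are intensity values on a linear scale, made by the authors with RMA per the submitters' processing notes; its version and settings are not given in the sources used here. Their log2 was taken with no further normalization. Limma 3.58.1 in R 4.3.3 (lmFit, eBayes) was fitted to all 22215 probe sets, with Benjamini-Hochberg adjustment over all of them and a threshold of 0.05. A fit on 3 title groups gave adult minus fetal-titled, adult minus infant and infant minus fetal-titled differences, which share arrays, and a fit on 4 stages gave newborn minus gestation day 120 and the F test. Intervals are 95% intervals of the fit, and the number of arrays limits their precision.

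Gene names came from the platform annotation, in which 19065 probe sets had 1 symbol, 1043 several and 2107 none. A gene was represented by its brightest probe set. Of the 52 member genes 51 matched the RefSeq table of assembly T2T-MMU8v2.0, used only for neighbours. The probe sets described were those of a fixed list of family members, those of smallest p in each comparison and the 3 of widest range over the arrays. Members and gene lists were chosen with earlier results of these data known. The pairing check correlated deviations from group means of same-numbered arrays: 0.145, 0.131 and 0.204 between adults and infants. These values met the rule used here, which looks at title numbers alone. Adult arrays 1 and 3 correlated better with infant arrays 2 and 4 (0.258 and 0.299), so the pairing is uncertain, and the main fits used none. The fit was tested on simulated data. Alternatives covered normalization, the variance model, array weights, the filter on dim probe sets, the replicate number as a block, other fetal groups, and leaving out arrays.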

Additional observations from a re-analysis of the deposited data

Results flagged for a closer look

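In 48 groups of 4 arrays examined for the described probe sets, 4 held an array far from the other 3 by Dixon's criterion, and chance gives about 1 in 20. MMP13 read 8.0075 in gestation day 120 array 1, against 7.17 to 7.31 in the other fetal-titled arrays. ADAMTS2, by its brightest probe set, read 9.1014 in infant array 1, against 8.41 to 8.46 in the other infants. ADAMTS12 read 7.0752 in infant array 4, against 7.28 to 7.29 in the others. MMP12 read 6.8786 in newborn array 3, where the other 3 fetal-titled arrays held 1 identical value, 6.9498, so its distance rests on tied values.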

How the results depend on the processing

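With the replicate number as a block, 2 member probe sets, both of MMP14, passed for adults minus arrays titled fetal (0.62 and 0.54, adjusted p 0.0239 and 0.0478), with 221 of all probe sets called against 29 without it. Same-numbered arrays of these groups correlated at 0.0683, 0.0427 and -0.0965, so the numbers do not pair them, and at 0.00773 to 0.275 between infants and arrays titled fetal, where the block called 0 members and 2 probe sets in all. The block called 0 members for adults minus infants (9 in all, against 4) and in the F test (231, against 6), and TIMP1 became 0.1193. For newborns minus gestation day 120 the block, an alternative chosen after seeing the data, called 0 members and 2 probe sets in all, against 0 (ADAM12 0.9684, adjusted p = 0.148). Leaving out each array in turn gave 0 to 1 members called for adults minus arrays titled fetal (MMP19 without adult array 3; 4 to 153 of all probe sets), and 0 in the other comparisons. Over these fits TIMP1 ran between -0.3669 and 0.2643, MMP1 between -0.1416 and 0.0145 and ADAM17 between -0.0267 and 0.1024. With adult arrays 1 and 2 both left out, TIMP1 was 0.7062, MMP13 0.1191 and ADAM17 -0.0506. With gestation day 120 alone as the fetal group, TIMP3 was 0.0981 and TIMP1 0.0586, and with newborns alone MMP1 was 0.0127, ADAM17 -0.0398 and 2 probe sets in all were called. These sign changes are of differences that did not pass, and the cause was not tested. Probe sets called in all for adults minus arrays titled fetal were 16 with only these groups fitted and 120 with array weights. For adults minus infants they were 2 and 10, and 8 with a variance trend. For the F test they were 15 with the trend and 30 with the weights, and for infants minus arrays titled fetal 1 with the weights and 1 in the brighter 50%. With adult arrays 1 and 2 left out they were 44 for both adult comparisons and 14 for the F test. Leaving out single arrays gave 0 to 55 for adults minus infants, 0 to 21 for infants minus arrays titled fetal, 0 to 2 for newborns minus gestation day 120 and 1 to 69 for the F test. No member was called in those fits.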
